A study of Rattus norvegicus with 36 samples.

Results

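Genes that mark astrocytes or clear glutamate, 5 in all, were followed in the striatum of 36 male rats at 2 months of age. They were *Gfap* (ENSRNOG00000002919), *Aqp4* (ENSRNOG00000016043), *S100b* (ENSRNOG00000001295), *Slc1a2* (ENSRNOG00000005479) and *Slc1a3* (ENSRNOG00000016163), chosen by identifier as 5 of the 23965 genes in the count table. None of the 5 met the thresholds for differential expression in any of the 12 comparisons of genotype and environment. The share called over all tested genes was also low, from 0% to 0.577%, so 0 of 5 says nothing particular to these genes. Their levels varied between libraries, by 2.45-fold over all libraries for *Gfap* and 2.23-fold for *Slc1a2*. For *Slc1a2*, runs of consecutive library numbers accounted for 52.8% of the variance of log2 values. Within groups 7 of the 10 pairs of members were correlated, but the share of all gene pairs that would pass was not computed.

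The rats combined 2 genotypes with 3 rearing environments, with 6 animals in each group. Transgenic (TG) animals were BACHD rats on a Sprague Dawley background, which carry the full-length human mutant huntingtin gene (*mHTT*) on a bacterial artificial chromosome that includes the regulatory elements of the human gene, so the transgene is not restricted to astrocytes or to any other cell type. Wildtype (WT) animals were Sprague Dawley rats of the same line without the transgene. The standard environment (SE) consisted of ordinary cages, the enriched environment (EE) of larger cages with more animals and changing objects from weaning onwards, and maternal separation (MS, written ELS in the labels) of daily separation of the pups from the dam early in life followed by standard housing. The 6 groups are written WT_SE, TG_SE, WT_EE, TG_EE, WT_MS and TG_MS. Whole litters were allocated at random to an environment, and litter mates of mixed genotype were housed together. Litters were not given for single animals.

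Levels are reported as normalized counts (CPM), in which every library is scaled to the same total of reads on tested genes, with TMM factors. Total counts per library lay between 9895073 and 19284439, and the lowest raw count of any of the 5 genes in any library was 1675, so that counting error was small (SD of 0.010 to 0.026 on the log2 scale). All 5 genes were among the 12657 genes that were tested, those whose raw count averaged 50 or more. The genotype labels were checked with an unnamed gene, ENSRNOG00000010867, which was chosen after its values were seen and lay at or above 34.4 CPM in every TG library and at or below 6.67 CPM in every WT library. In whole striatum, fewer astrocytes and less RNA per astrocyte cannot be told apart. The count table pairs no identifiers with symbols, and markers of neurons, oligodendrocytes, microglia and vessels were therefore not analysed here.

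Astrocytes take up the glutamate that synapses release, convert it to glutamine and return it to neurons. Uptake runs mainly through 2 sodium-coupled transporters of the astrocyte membrane, GLT-1 (EAAT2), encoded by *Slc1a2* and dominant in the mature forebrain, and GLAST (EAAT1), encoded by *Slc1a3* and expressed from early development onwards. *Gfap* encodes the intermediate filament protein whose increase is the classical sign of reactive astrocytes, *Aqp4* the water channel of the endfeet around vessels, and *S100b* a calcium-binding protein of astrocytes that some oligodendrocytes also contain. Reactive astrocytes and a loss of GLT-1 are well-known features of the striatum in Huntington disease (HD) and in several of its animal models.

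All 5 genes had a promoter entry in the RefSeq tables for the build GRCr8, matched by symbol. The bases immediately upstream of the first listed start are shown for the 2 transporters, the pair that varied together most closely, and for *Gfap*, which did not vary with either of them. They are written in the direction of transcription, with matches to the motifs searched in capitals.
*Slc1a2*, chr3:109459859-109460108, plus strand: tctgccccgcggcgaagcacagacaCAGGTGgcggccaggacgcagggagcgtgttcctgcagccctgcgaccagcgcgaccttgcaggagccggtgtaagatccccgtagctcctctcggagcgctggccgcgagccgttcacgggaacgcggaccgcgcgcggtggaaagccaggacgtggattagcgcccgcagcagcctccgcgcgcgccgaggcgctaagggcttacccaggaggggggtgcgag
*Slc1a3*, chr2:59557809-59558058, minus strand: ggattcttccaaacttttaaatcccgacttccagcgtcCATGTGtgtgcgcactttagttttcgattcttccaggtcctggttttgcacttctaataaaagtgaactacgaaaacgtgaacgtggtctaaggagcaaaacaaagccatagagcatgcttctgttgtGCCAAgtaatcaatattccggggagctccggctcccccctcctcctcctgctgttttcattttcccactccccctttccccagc
*Gfap*, chr10:88361662-88361911, minus strand: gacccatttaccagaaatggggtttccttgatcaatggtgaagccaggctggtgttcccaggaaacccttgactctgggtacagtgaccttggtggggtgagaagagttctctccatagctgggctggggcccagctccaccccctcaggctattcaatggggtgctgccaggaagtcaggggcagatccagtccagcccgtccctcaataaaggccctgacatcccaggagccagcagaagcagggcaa
Matches were searched on both strands. One motif was TATAAA, and another was the CCAAT box with just those letters. The GC box was searched as GGGCGG and the nuclear factor I motif as the letters TTGGC. For STAT factors the letters were TTCNNNGAA, and for the E box, CANNTG. The nuclear factor I letters on the reverse strand overlap the CCAAT box by all but 1 base where both occur. The *Slc1a2* window held 1 E box, and the *Slc1a3* window held 1 E box and 1 nuclear factor I motif. The *Gfap* window held none of the 6. Over all 33469 promoter windows of this length, an E box occurred in 65.5%, a nuclear factor I motif in 40.3%, a CCAAT box in 34.02%, a GC box in 30.5%, TATAAA in 12.9% and the STAT motif in 7.67%. The GC content was 71.2% for *Slc1a2*, 48.0% for *Slc1a3* and 57.6% for *Gfap*, against a median of 51.2% over all windows. The matches are descriptions of these letters and not evidence of binding, and further starts listed for *Slc1a2* (2 in all) and *Slc1a3* (3 in all) were not searched.

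In the group means, *Gfap* was slightly higher in TG than in WT animals in each environment. It averaged 364 ± 53.7 CPM (SD, n = 6) in WT_SE and 394 ± 56.1 in TG_SE, 360 ± 79.97 in WT_EE and 388 ± 65.9 in TG_EE, and 380 ± 86.1 in WT_MS and 389 ± 91.4 in TG_MS. Single animals spread far more widely than these means. The lowest, median and highest values were 305, 354 and 445 CPM in WT_SE and 307, 416 and 446 in TG_SE. They were 256, 362 and 446 CPM in WT_EE and 289, 383 and 478 in TG_EE. After maternal separation they were 292, 365 and 537 CPM in WT_MS and 219, 408 and 473 in TG_MS. All 6 groups overlapped, and both the highest and the lowest *Gfap* library of the whole series belonged to the MS groups.

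*Aqp4* averaged 616 ± 52.2 CPM in WT_SE and 667 ± 71.2 in TG_SE (SD, n = 6 in each group). The lowest, median and highest animals were at 545, 622 and 672 CPM in WT_SE and at 587, 642 and 755 in TG_SE. The higher mean of TG_SE came with 2 animals above the whole WT_SE range, at 753 and 755 CPM, while the other 4 lay inside it. In the enriched environment the means were 614 ± 95.02 CPM in WT_EE (539, 578 and 776) and 608 ± 90.7 in TG_EE (509, 612 and 737). After maternal separation they were 586 ± 70.2 CPM in WT_MS (486, 585 and 683) and 596 ± 71.1 in TG_MS (501, 597 and 694). WT and TG animals overlapped over most of their ranges in both of these environments.

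*S100b* showed no common direction with genotype, and its group means ran from 1423 ± 116 CPM in TG_MS to 1594 ± 242 in TG_EE. Its single libraries ran from 1198 CPM in TG_MS to 1998 CPM in TG_EE. The WT means were 1505 ± 179 CPM under SE, 1524 ± 132 under EE and 1511 ± 123 under MS, and TG_SE stood at 1452 ± 71.4 (SD, n = 6 in each group). Every group overlapped every other.

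*Slc1a2*, the GLT-1 gene, showed no common direction with genotype in its group means. It averaged 257 ± 60.5 CPM in WT_SE against 254 ± 64.5 in TG_SE, 262 ± 64.3 in WT_EE against 242 ± 50.2 in TG_EE, and 236 ± 54.9 in WT_MS against 241 ± 39.9 in TG_MS (SD, n = 6 in each group). The lowest, median and highest animals were at 182, 269 and 331 CPM in WT_SE, and at 157, 286 and 305 in TG_SE. They were at 201, 237 and 350 CPM in WT_EE and at 160, 249 and 312 in TG_EE, and at 168, 237 and 324 in WT_MS and 178, 245 and 288 in TG_MS. All groups overlapped. The TG median was above the WT median in each environment, while the TG mean was below the WT mean in SE and in EE.

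*Slc1a3*, the GLAST gene, was the member with the clearest order of group means, with TG below WT in each environment. It averaged 822 ± 67.2 CPM in WT_SE and 779 ± 31.5 in TG_SE, with lowest, median and highest animals at 761, 803 and 954 and at 745, 774 and 823. In the enriched environment it averaged 876 ± 96.4 CPM in WT_EE (738, 852 and 1007) and 765 ± 90.1 in TG_EE (652, 751 and 906). After maternal separation it averaged 821 ± 68.7 CPM in WT_MS (733, 820 and 919) and 749 ± 47.5 in TG_MS (694, 736 and 834). The ranges of WT and TG overlapped in all 3 environments. Over all environments the 18 WT animals averaged 840 ± 78.4 CPM and the 18 TG animals 764 ± 59.2 CPM (SD).

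**Figure D1:**
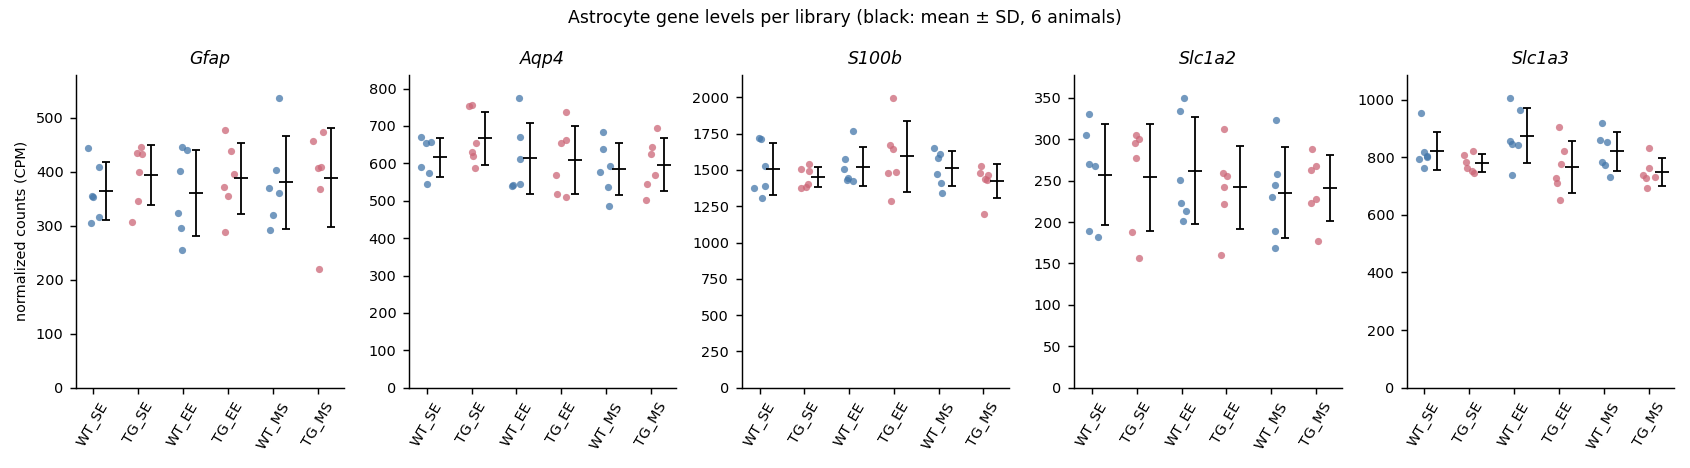
Normalized counts (CPM, linear axis from 0) of each gene in every library, by group, with WT in blue and TG in red; black marks give the mean and SD of 6 animals. The 6 groups overlap for every gene, and *Slc1a3* has its 3 TG means (749 to 779 CPM) below its 3 WT means (821 to 876 CPM).

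Whether these differences exceeded the spread between animals was tested with edgeR's quasi-likelihood method in 1 fit of all 36 libraries with surrogate variables, which stand for unlabelled variation between libraries. A gene was called if its p, adjusted by Benjamini-Hochberg over the 12657 genes, was 0.1 or lower and its log2 fold change was 0.3 or more in either direction. In the comparison of TG with WT animals, 0 of 5 members were called in SE, where 0.213% of all tested genes were called, 0 of 5 in EE (0.411%), 0 of 5 in MS (0.134%) and 0 of 5 in the genotype effect averaged over environments (0.577%). DESeq2 with the same surrogate variables also called 0 of 5 in each, and 33, 39, 33 and 74 of all tested genes in the same order. At an unadjusted p below 0.05, edgeR counted 1 member under SE, 1 under EE, 0 under MS and 2 in the averaged effect, against 6.16%, 11.4%, 7.36% and 15.3% of all tested genes.

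The fitted genotype differences were small in both directions. For *Slc1a3* the log2 fold change of TG against WT was -0.03 (standard error 0.063) in the standard environment, -0.14 (standard error 0.058, edgeR adjusted p = 0.328) in the enriched environment and -0.11 (standard error 0.062, adjusted p = 0.752) after maternal separation. Averaged over environments it was -0.092 (standard error 0.034), with a 95% confidence interval from -0.16 to -0.024 and an edgeR adjusted p of 0.147. With the runs of library numbers as covariate in place of surrogate variables it was -0.13 (standard error 0.036) with an edgeR adjusted p of 0.0418, past the threshold on p but not on the fold. Leaving out the WT_SE animal with the highest *Slc1a3*, at 954 CPM, turned the SE difference to 0.020 and gave an averaged difference of -0.079 (edgeR adjusted p = 0.230). Leaving out each library in turn gave averaged differences from -0.11 to -0.059, both ends being reached without a WT_EE animal, with edgeR adjusted p-values from 0.0573 to 0.32. The EE difference ran from -0.18 to -0.057 in the same way, and -0.057 was the value without WT_EE replicate 6.

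*Aqp4*, the water channel, had a log2 fold change of 0.19 (standard error 0.072, edgeR adjusted p = 0.669) for TG against WT in SE, 0.10 (standard error 0.065, adjusted p = 0.580) in EE and -0.014 (standard error 0.070, adjusted p = 0.986) in MS. Averaged over environments it was 0.092 (standard error 0.038, edgeR adjusted p = 0.210). The EE value depended on the surrogate variables, since without them it was -0.013, as the nearly equal group means of 614 and 608 CPM show. The averaged value without them was 0.042 (edgeR adjusted p = 0.874). When only genes with at least 50 counts in every library were tested, the averaged value was 0.14 (edgeR adjusted p = 0.0901). That was past the threshold on p but not on the fold.

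*Gfap* had the largest fitted difference of the set, a log2 fold change of 0.22 (standard error 0.139, 95% confidence interval from -0.068 to 0.50) for TG against WT in SE. Its values were 0.15 (standard error 0.123) under EE, 0.048 (standard error 0.133) under MS and 0.14 (standard error 0.072) averaged over environments, with edgeR adjusted p-values of 0.888, 0.683, 0.970 and 0.371 in that order, SE first. The SE interval reached beyond the threshold of 0.3, so a *Gfap* difference of that size was neither called nor outside the interval. Over the other settings of filter, normalization and covariates, the SE value ran from 0.12 to 0.32 with adjusted p-values of at least 0.705, and the EE value from 0.0015 to 0.15. *S100b* lay between -0.020 and 0.058 and *Slc1a2* between -0.079 and 0.10 in the 3 environments, with adjusted p-values of at least 0.745 for *S100b* and 0.770 for *Slc1a2*. The *Slc1a2* values were 0.063 in SE, 0.10 in EE and -0.079 in MS, each opposite in direction to its group means. With the runs of library numbers as covariate in place of surrogate variables they were -0.024, -0.10 and 0.019 (standard errors 0.133, 0.134 and 0.134). The *S100b* value in SE likewise went from 0.040 to -0.044. The median of the 5 members was 0.063 under SE, 0.10 under EE, -0.020 under MS and 0.029 averaged, against medians over all tested genes between -0.0029 and 0.0040. With the runs as covariate the members' median was -0.024 under SE, -0.014 under EE, 0.018 under MS and -0.025 averaged. The sign of each median thus depended on the covariates.

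Environment was compared within each genotype and averaged over both. Each animal was taken as independent, although environments were assigned to whole litters and litter could not be modelled. No member was called for EE against SE in WT, in TG or averaged, where 0%, 0% and 0.0079% of all tested genes were called, and none for MS against SE in WT, in TG or averaged, where 0% of genes were called in each. DESeq2 called 0 of 5 members in these 6 comparisons as well. Of all tested genes it called 2 for EE against SE in WT, 4 for EE against SE averaged and 0 in the others. At an unadjusted p below 0.05, edgeR counted 1 of 5 members (*Aqp4*) for MS against SE in TG and averaged, and 0 of 5 in the other 4, against 3.05% to 6.29% of all tested genes over the 6 comparisons.

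*Aqp4* had the largest environmental difference, a log2 fold change of -0.20 (standard error 0.0671, 95% confidence interval from -0.34 to -0.068) for TG_MS against TG_SE. Its edgeR adjusted p was 1, and in this comparison 523 of the 12657 tested genes fell below an unadjusted p of 0.05. In WT animals the same contrast was -0.0012 (standard error 0.072). For *Slc1a2* the difference of TG_MS from TG_SE was -0.15 (standard error 0.107) and for *Gfap* -0.19 (standard error 0.128), while in WT animals they were -0.013 (standard error 0.113) and -0.020 (standard error 0.139). With the runs of library numbers as covariate in place of surrogate variables, the TG differences were -0.050 (standard error 0.134) for *Slc1a2* and -0.033 (standard error 0.157) for *Gfap*. For *Aqp4* that fit gave -0.17 in TG animals (standard error 0.0968, 95% confidence interval from -0.37 to 0.029). In WT animals it gave -0.065 (standard error 0.0968). With surrogate variables, *S100b* and *Slc1a3* stayed between -0.082 and 0.091 in all 6 environmental comparisons. In TG_MS against TG_SE all 5 members had values below 0, with a median of -0.15 against a median of 0.00046 over all tested genes, while in WT animals the median of the 5 was -0.013. With the runs as covariate the 5 values in TG animals lay between -0.17 and -0.033, with a median of -0.050. These 5 values are not independent, since most pairs of members were correlated between animals of a group. For EE against SE the members' medians were 0.000019 in WT and -0.015 in TG.

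The interaction terms asked whether the genotype difference changed with the environment. No member was called for the interaction with EE or with MS, where 0% of all tested genes were called in each. DESeq2 called 0 of 5 members and 0 of all tested genes in both. At an unadjusted p below 0.05, edgeR counted 0 of 5 members for EE and 1 of 5 (*Aqp4*) for MS, against 4.02% and 4.203% of genes. The *Aqp4* interaction with MS was -0.20 (standard error 0.0969) on the log2 scale, with an edgeR adjusted p of 0.999. With the runs as covariate it was -0.10 (standard error 0.137), and over all other settings its smallest size was -0.088. This interaction, the *Aqp4* difference of TG from WT in SE and that of TG_MS from TG_SE share the TG_SE animals and are not independent. The *Slc1a3* interactions were -0.11 (standard error 0.0897) for EE and -0.078 (standard error 0.0857) for MS.

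These null results were not equally informative for the 5 genes. Of the 60 confidence intervals, 44 lay entirely within the threshold of 0.3 in both directions. This was so for 12 of 12 intervals of *S100b*, 12 of 12 of *Slc1a3*, 9 of 12 of *Aqp4*, 7 of 12 of *Slc1a2* and 4 of 12 of *Gfap*. In this fit a change of 0.3 or more thus lay outside each 95% interval of *S100b* and *Slc1a3*, whereas for *Gfap* most intervals still included one. With the runs as covariate, the *Slc1a3* interval reached 0.3 in size for TG against WT in EE (-0.32 to -0.067) and for the interaction with EE (-0.301 to 0.060).

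**Figure D2:**
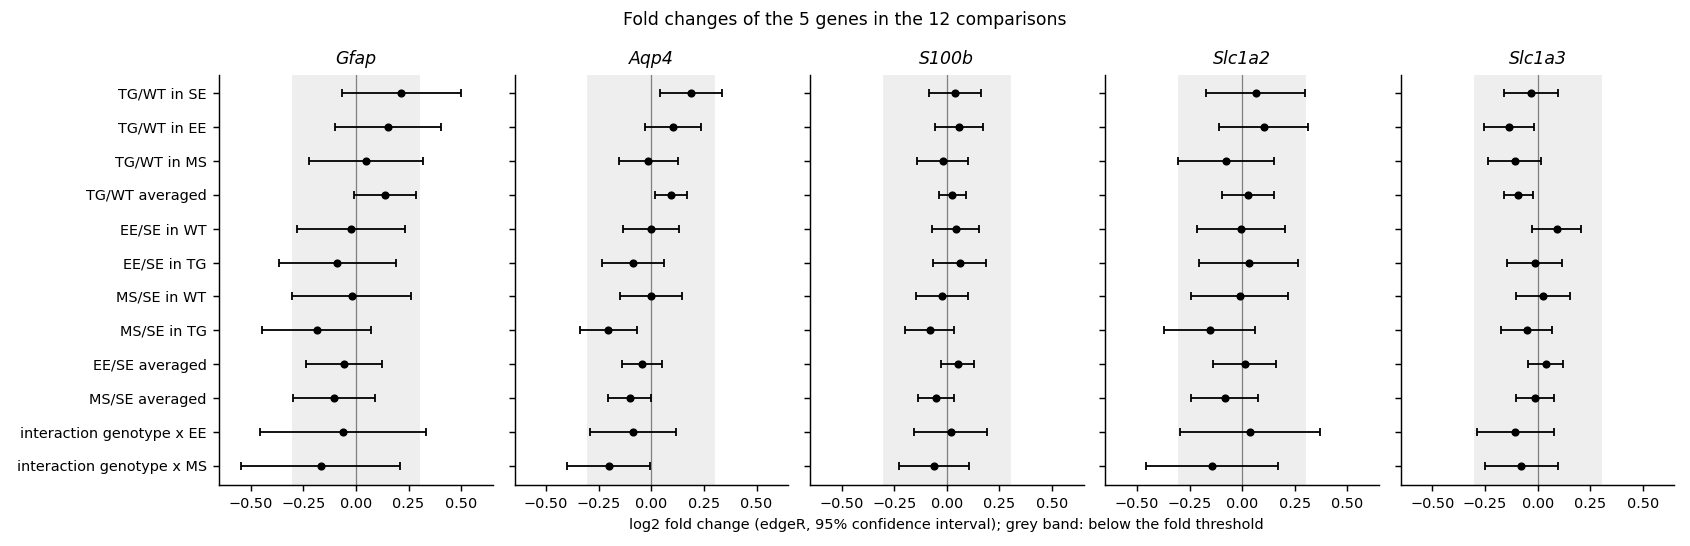
Fitted log2 fold change of each gene (points) with its 95% confidence interval (bars) in the 12 comparisons; the grey band marks absolute values under the threshold of 0.3. No point leaves the band, all 12 intervals of *S100b* and of *Slc1a3* stay inside it, and 8 of 12 intervals of *Gfap* cross its edge.

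The library numbers, 1 to 36, fall into 6 runs of consecutive numbers with 1 animal of every group in each, which gave 18 pairs of a TG and a WT animal with the same environment and the same run. The labels do not say what the numbers stand for. *Slc1a3* was lower in the TG animal in 13 of 18 pairs, 4 of 6 under SE, 5 of 6 under EE and 4 of 6 under MS, with a mean difference of -0.13 on the log2 scale. *Gfap* was higher in the TG animal in 12 of 18 pairs, with a mean of 0.084 and single pairs from -0.75 to 0.63. *Aqp4* and *Slc1a2* were each higher in 9 and lower in 9 of the 18 pairs, and *S100b* was lower in 10.

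**Figure D3:**
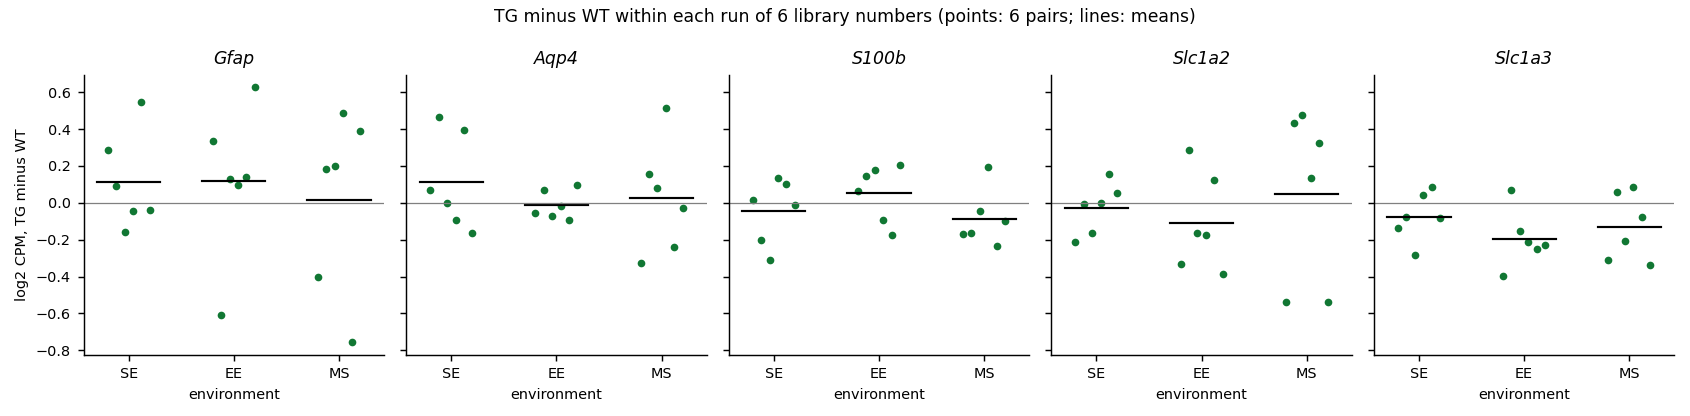
Difference in log2 CPM between the TG and the WT animal of each run of 6 library numbers (points, 6 per environment) with their mean (black lines). *Slc1a3* lies below 0 in 13 of 18 pairs, while *Gfap* pairs spread from -0.75 to 0.63.

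The runs accounted for more of the variance of *Slc1a2* than the groups did. *Slc1a2* averaged 189 CPM in libraries 1 to 6 and 208 CPM in libraries 7 to 12, and then 290, 266, 259 and 280 CPM in the remaining 4 runs. The first run spanned 157 to 258 CPM and the second 168 to 260 CPM, so that both overlapped the later runs, which spanned 189 to 350 CPM. Run means accounted for 52.8% of the variance of its log2 values, more than for 94.3% of tested genes (median gene 22.04%), while group means accounted for 2.69%. For the remaining members the share between runs was 37.2% for *S100b*, 25.2% for *Slc1a3*, 14.5% for *Aqp4* and 13.1% for *Gfap*. The share between groups was 12.3%, 30.5%, 11.9% and 3.38% in that order, and 15.1% for the median gene. The share between runs was thus larger than that between groups for the median gene and for every member except *Slc1a3*. For *Aqp4* and *Gfap*, however, the share between runs (14.5% and 13.1%) was below that of the median gene (22.04%). Whether any of these shares exceeded what chance gives was not tested. Since every run contained 1 animal of each group, run and group were not confounded.

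**Figure D4:**
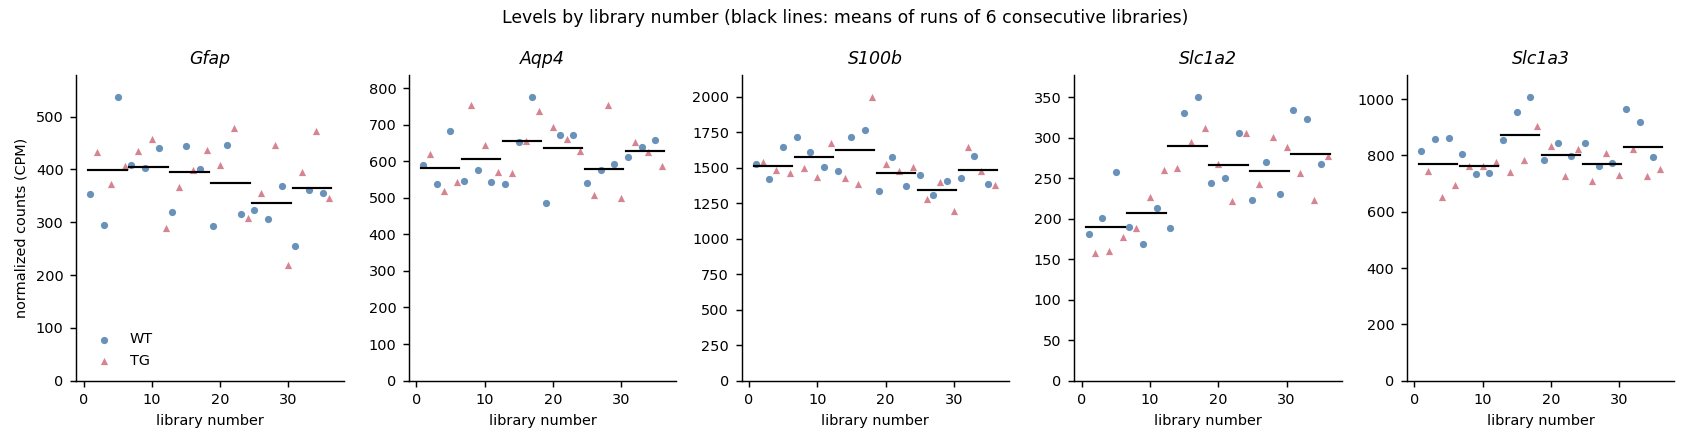
Normalized counts (CPM, linear axis from 0) of each gene against library number, with WT as blue circles, TG as red triangles and black lines for the means of runs of 6 libraries. *Slc1a2* averaged 189 and 208 CPM in the first 2 runs and between 259 and 290 CPM in the later 4, over both genotypes together.

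The spread between animals of a group differed between members. The SD of log2 values within groups was 0.34 for *Slc1a2* and 0.30 for *Gfap*, above 94.4% and 90.7% of tested genes, 0.18 for *Aqp4*, 0.14 for *S100b* and 0.12 for *Slc1a3*, against 0.16 for the median gene. The 2 transporters thus stood on opposite sides of the median gene, with *Slc1a2* above 94.4% and *Slc1a3* above 28.1% of tested genes. The surrogate variables took up 71.2% of the within-group variance of *Slc1a2*, 62.1% of that of *Aqp4* and of *S100b*, 48.8% of that of *Gfap* and 46.4% of that of *Slc1a3*, against 39.7% for the median gene. Group means accounted for 30.5% of the variance of *Slc1a3* and between 2.69% and 12.3% of that of the other 4, against 15.1% for the median gene.

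Within groups, 7 of the 10 pairs of members passed a test of correlation over the 36 libraries. The share of all gene pairs that would pass was not computed, so the count says nothing particular to these genes. Correlations were computed on log2 CPM after each group mean was subtracted, with 100000 permutations of the libraries within groups and Benjamini-Hochberg adjustment over the 10 pairs. The closest pair was the 2 transporters, with a Pearson r of 0.67 (adjusted permutation p = 1e-04, the smallest these permutations can give) and a Spearman rho of 0.65 (adjusted permutation p = 1e-04), and r remained at 0.64 without the 2 libraries farthest from the median of *Slc1a2*. *Slc1a3* also varied with *Aqp4* (r = 0.62, rho = 0.54, adjusted permutation p = 0.002 for r and 0.00737 for rho) and with *S100b* (r = 0.55, rho = 0.52, adjusted permutation p = 0.00553 and 0.00892). Without the 2 libraries farthest from the median of *Aqp4* and of *S100b*, these r were 0.51 and 0.44.

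The 3 pairs among the marker genes also passed. *Gfap* varied with *Aqp4* (r = 0.57, rho = 0.59, adjusted permutation p = 0.00238 and 0.00403) and with *S100b* (r = 0.56, rho = 0.55, adjusted permutation p = 0.002 and 0.00403), and *Aqp4* varied with *S100b* (r = 0.56, rho = 0.47, adjusted permutation p = 0.00238 and 0.0115). Without the 2 farthest libraries these r were 0.48, 0.47 and 0.43. *Aqp4* and *Slc1a2* had an r of 0.43 (rho = 0.42, adjusted permutation p = 0.0203 and 0.0268), which fell to 0.33 without the 2 farthest libraries. After the run means were subtracted as well, this r was 0.38 with an adjusted permutation p of 0.0963, and the other 6 pairs still passed.

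The remaining 3 pairs did not pass the test. *Gfap* had an r of -0.19 with *Slc1a2* (rho = -0.13, adjusted permutation p = 0.359 and 0.583) and of 0.047 with *Slc1a3* (rho = 0.048, adjusted permutation p = 0.808 and 0.801). *S100b* had an r of 0.044 with *Slc1a2* (rho = 0.081, adjusted permutation p = 0.808 and 0.732). Without the 2 farthest libraries, r was -0.18, -0.011 and -0.051 for these pairs. Animals with high *Gfap* were therefore not, in these data, detectably those with low or high transporter levels. Run means entered these correlations, and with them subtracted r was -0.087 for *Gfap* and *Slc1a2*, 0.032 for *Gfap* and *Slc1a3*, and 0.23 for *S100b* and *Slc1a2*.

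**Figure D5:**
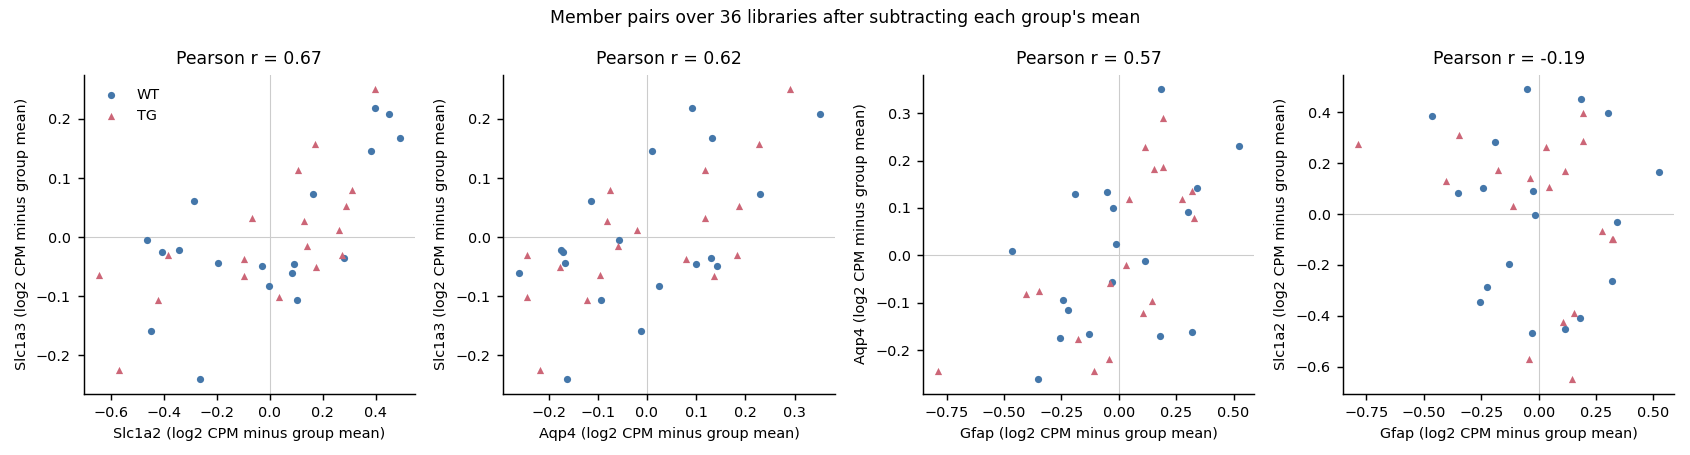
Log2 CPM minus the group mean for 4 pairs of genes, 1 point per library (36 in all; WT blue circles, TG red triangles), with Pearson r above each panel. *Slc1a2* with *Slc1a3* (0.67), *Aqp4* with *Slc1a3* (0.62) and *Gfap* with *Aqp4* (0.57) rise together, and *Gfap* with *Slc1a2* (-0.19) does not.

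Ratios of 2 members within a library do not depend on how libraries are scaled. The raw count of *Slc1a2* divided by that of *Slc1a3* lay between 0.211 and 0.394 over all libraries with a median of 0.311. By group it averaged 0.313 ± 0.067 in WT_SE and 0.324 ± 0.075 in TG_SE, 0.296 ± 0.045 in WT_EE and 0.314 ± 0.037 in TG_EE, and 0.285 ± 0.050 in WT_MS and 0.322 ± 0.048 in TG_MS (SD, n = 6). The TG mean was the higher one in each environment, but the log2 ratio differed by only 0.046 under SE, 0.088 under EE and 0.18 under MS, and by 0.10 averaged. None passed a 2-sided permutation test over a family of 12 (adjusted p = 0.872 for each, exact over all 924 splits within an environment). The ratio of *Gfap* to *Slc1a2* ran from 0.760 to 2.75 over all libraries, and its log2 value differed between TG and WT by 0.14 under SE, 0.23 under EE and -0.031 under MS, with adjusted p of 0.872, 0.872 and 0.933 in exact permutation tests. Neither ratio differed detectably for EE or MS against SE (adjusted permutation p of at least 0.872). By run of library numbers, the median *Gfap* to *Slc1a2* ratio was 2.18 and 2.11 in the first 2 runs and between 1.29 and 1.45 in the later 4.

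The genes most like each member over the 36 libraries, by Pearson r of log2 CPM with group means kept, were genes for which no symbol was at hand. For *Slc1a2* they were ENSRNOG00000005391 (r = 0.93), ENSRNOG00000007705 (r = 0.92) and ENSRNOG00000006030 (r = 0.89). *Slc1a3* was most like ENSRNOG00000013683 (r = 0.85), ENSRNOG00000015225 (r = 0.81) and ENSRNOG00000007290 (r = 0.79), and *S100b* was most like ENSRNOG00000001113 (r = 0.82), ENSRNOG00000032871 (r = 0.81) and ENSRNOG00000009244 (r = 0.80). *Aqp4* followed ENSRNOG00000011852 (r = 0.76), ENSRNOG00000040205 (r = 0.75) and ENSRNOG00000017952 (r = 0.74). *Gfap* followed ENSRNOG00000009694 (r = 0.72), ENSRNOG00000009333 (r = 0.70) and ENSRNOG00000029813 (r = 0.70). No member was among the 3 genes most like another. In likeness to *Gfap*, *Aqp4* ranked 63rd, *S100b* 129th, *Slc1a3* 7214th and *Slc1a2* 9959th of 12656. *Aqp4* ranked 1368th in likeness to *Slc1a2*. *Slc1a2* ranked 104th of 12656 genes in likeness to *Slc1a3*, and *Slc1a3* ranked 444th in likeness to *Slc1a2*. These r share library depth and run and are given as descriptions.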

How the data were processed

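Poly(A)-selected RNA from the striatum of 36 rats was sequenced, and groups were taken from the genotype and environment labels. The authors checked reads with FastQC 0.11.4, used STAR 2.5.2b for alignment to a rat genome (Ensembl) that also held the human *HTT* transgene, and deposited the raw counts of each Ensembl gene. The program that counted reads per gene is not given in the sources used here, and neither is whether it used strand. The submitters' processing notes also name DESeq2 1.16.1.

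The analysis used edgeR 4.0.16, sva 3.50.0, DESeq2 1.42.0 and limma 3.58.1 under R 4.3.3. The 12657 of 23965 genes whose raw count averaged 50 or more entered 1 quasi-likelihood fit with TMM scaling, 1 mean per group and 5 surrogate variables (num.sv with seed 1, then svaseq; the asymptotic procedure of num.sv gave 0). Calls needed a p of 0.1 or lower after Benjamini-Hochberg adjustment over all genes tested, and a log2 fold change of 0.3 or more in either direction. Confidence intervals cover 95% and use the standard error of that fit. No 2 libraries of a group agreed within sampling noise (smallest chi-square per degree of freedom 5.04). The procedure was tested on simulated counts. Ratios and correlations were tested by permutation of libraries in Python 3.11.15 with scipy 1.17.1. Alternatives were 0 or 2 surrogate variables, runs of 6 consecutive library numbers as covariate, DESeq2, its size factors in edgeR, a stricter adjusted p of 0.05, 2 different minimum counts, and each library left out in turn.

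The genes, lists and tests were chosen with earlier results of these data known. The rule for named genes was the 5 members, called genes of 14 lists of cell type and pathway genes (144 symbols), and for each member the 3 genes most like it. Symbols of the members came with their choice and were not checked against the table, which holds Ensembl identifiers only. The 14 lists could not be matched for the same reason and were not analysed here, among them the other astrocyte, reactive astrocyte, glutamine cycle and other cell type genes. Promoter sequences are from RefSeq for GRCr8, and no coordinates of the authors' build are given.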

Additional observations from a re-analysis of the deposited data

Results flagged for a closer look

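Levels were screened in each of the 30 combinations of gene and group for an animal far from its group, by the gap to the nearest animal as a share of the group's range. Chance marks about 1 in 20 such groups, and 2 of 30 were marked. *S100b* was 1198 CPM in TG_MS replicate 5, against 1429 CPM in the next lowest animal of the group, a gap of 0.699 of the range. The same library, number 30, had the lowest *Gfap* of the series at 219 CPM, and without it the *S100b* difference of TG from WT in MS stayed at -0.020 on the log2 scale while that of *Gfap* was 0.099. *Slc1a3* was 954 CPM in WT_SE replicate 3, against 817 CPM in the next highest animal, a gap of 0.709 of the range. Without this library the *Slc1a3* difference of TG from WT in SE was 0.020 in place of -0.031. None of the 10 interaction terms of the 5 genes with EE or MS passed the edgeR threshold.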

How the results depend on the processing

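The number of members called was 0 in all 12 comparisons under each of the 8 other settings and with each of the 36 libraries left out. Among the uncalled fold changes of the members, 72 of 480 changed sign under the other settings and 92 of 2160 when a library was left out. The counts of all called genes, the background of the report, moved more, and the cause was not tested. With 0 surrogate variables the TG/WT comparison gave 83 genes under SE, 21 under EE and 9 under MS, and EE/SE averaged gave 0. With 2 it gave 31 in MS, and EE/SE averaged gave 0. With runs as covariate there were 144 in SE, 50 for MS/SE in WT, 0 for EE/SE averaged and 8 for the interaction with EE. DESeq2 gave 33 in MS, 2 for EE/SE in WT and 4 for EE/SE averaged. A mean raw count of at least 1 (18978 genes) gave 142 for the averaged genotype effect, and at least 50 counts in every library (11424 genes) gave 25 in EE, 47 in MS and 2 for EE/SE averaged. An adjusted p of at most 0.05 gave 29 in EE.

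With single libraries left out, the genes called ranged from 14 to 30 under SE, 30 to 70 under EE and 10 to 20 under MS for TG/WT, 0 to 3 for EE/SE in WT, 0 to 4 for EE/SE averaged, 0 to 1 for MS/SE averaged and 0 to 1 for the interaction with EE. In SE the count fell to 14 without WT_SE replicate 1 and to 16 without TG_SE replicate 1 or 5. In EE it fell to 30 without WT_EE replicate 2 or 5, and in MS to 10 without TG_MS replicate 1 or WT_MS replicate 2 and to 11 without WT_MS replicate 6. Of the 20 correlations recomputed with run means subtracted or DESeq2 size factors, 19 kept their side of the threshold, and that of *Aqp4* and *Slc1a2* was 0.38 with run means subtracted (adjusted permutation p = 0.0963). All 252 recomputed ratio differences stayed above the threshold of 0.05 on the adjusted p. Counting error was small for these genes, and precision rested on the 6 animals per group, taken as independent. Environments were assigned to whole litters, and the number of litters behind each group was not given.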
